A study of Homo sapiens with 10 samples.

Results

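The comparison described here is EGF against nicotine in H1650, a human non-small cell lung carcinoma line with mutant EGFR per the labels. It rests on 4 of the 10 arrays of the series, the H1650 arrays whose titles name a stimulus, and these form 2 pairs matched on siRNA: control siRNA with EGF against control siRNA with nicotine, and ID1 siRNA with EGF against ID1 siRNA with nicotine. All 4 cultures carried an siRNA, had been starved of serum for 48 h and were then stimulated for 18 h, with 100 ng/ml EGF or with 1 µM nicotine. The control is thus a nicotine-treated culture, and the contrast gives what differed between the stimuli, not what either did against no stimulus. The 4 stimulated arrays of A549, a human lung carcinoma line, were used for the same contrast in a second line. Each line, siRNA and stimulus had n = 1 array. Separate cultures are not stated for any of them. The p-values rest only on the spread between the control and ID1 siRNA pairs of a line. That spread may be technical, and it also holds any change of the stimulus difference with the siRNA.

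EGF binds the receptor tyrosine kinase EGFR, which signals through RAS, RAF, MEK and ERK to transcription factors that switch on immediate early genes, followed by delayed early genes and by inhibitors that feed back on the same cascade. Activating EGFR mutations of lung adenocarcinoma keep the receptor partly active without ligand. Nicotine acts through nicotinic acetylcholine receptors, which in lung epithelium can also feed into kinase signalling. Genes induced by interferon, a separate antiviral programme, are switched on by STAT and IRF factors that bind a promoter motif called the interferon-stimulated response element.

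A sequence window of 300 bases around the transcription start (250 before and 50 from the start on), from RefSeq on GRCh38.p14, is shown for 3 genes, to set the known motifs of an early growth factor response gene beside those of the interferon response, the lists whose members are described most closely below. EGR1, an immediate early zinc finger factor that was higher with EGF, has 2 CArG boxes (in capitals), the motif bound by serum response factor, in its window at chr5:138465229-138465528 on the plus strand. IFITM1, an interferon-induced membrane protein that blocks virus entry and was lower with EGF, has 2 matches to the core of the interferon-stimulated response element, GAAA and a second GAAA with any 2 bases between them (in capitals), at chr11:313790-314089 on the plus strand. MX1, an interferon-induced antiviral GTPase whose difference was unlike that in A549, has 1 such match at chr21:41420308-41420607 on the plus strand, the only one of its 3 windows shown.
EGR1: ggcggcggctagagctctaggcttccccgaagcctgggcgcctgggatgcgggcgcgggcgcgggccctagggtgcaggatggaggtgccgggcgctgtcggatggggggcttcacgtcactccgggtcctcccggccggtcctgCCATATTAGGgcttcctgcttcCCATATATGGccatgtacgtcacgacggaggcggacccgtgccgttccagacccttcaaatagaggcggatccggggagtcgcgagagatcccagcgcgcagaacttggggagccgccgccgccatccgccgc
IFITM1: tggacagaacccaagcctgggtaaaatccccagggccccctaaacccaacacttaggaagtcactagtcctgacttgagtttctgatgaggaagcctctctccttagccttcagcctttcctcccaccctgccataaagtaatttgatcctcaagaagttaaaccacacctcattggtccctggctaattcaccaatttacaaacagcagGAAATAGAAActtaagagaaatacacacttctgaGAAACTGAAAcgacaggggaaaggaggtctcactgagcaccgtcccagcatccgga
MX1: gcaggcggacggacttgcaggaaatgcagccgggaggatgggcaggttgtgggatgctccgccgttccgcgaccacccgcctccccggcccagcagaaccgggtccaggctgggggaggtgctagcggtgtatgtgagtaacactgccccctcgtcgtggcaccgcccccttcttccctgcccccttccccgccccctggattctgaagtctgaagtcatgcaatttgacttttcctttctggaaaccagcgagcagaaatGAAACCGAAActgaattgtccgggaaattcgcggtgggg
The 2 EGR1 matches start at positions -105 and -83, and those of IFITM1 at -40 and -6 from the start site. Searched on both strands, the element core was found in a window of 25 of the 36 tested interferon genes with a window (69.4%). It was found in 393 of all 10188 tested genes with a window (3.86%) and in 1195 of 27305 genes with a RefSeq window (4.38%). OAS1, CMPK2 and IFI35 had no match in their windows, and TRIM22, MMP1 and FOSL1 had no window in the table. Of the 15 genes called lower that had a window, 1 held the core (6.67%). A CArG box was present in 2 of 29 tested early-response genes with a window (6.90%). It was present in 163 of the 10188 tested genes (1.60%) and in 438 of the 27305 genes (1.60%). The AP-1 motif TGANTCA was found in 6 of the same 29 early-response genes (20.7%), in 7.29% of tested genes with a window and in 9.37% of all genes. A match is a description of the letters in a window, not a binding site measured here.

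Of 12514 tested genes, 9 rose with EGF relative to nicotine and 17 fell (0.0719% and 0.136% of tested genes) at a Benjamini-Hochberg adjusted p under 0.05 in limma, which is what "called" means below. Of the 17, 6 (AKR1C2, DTNBP1, NRCAM, PPFIBP2, QPCT and SPP1) passed the filter on mean signal only through their A549 signal, and with a filter on the H1650 arrays alone, added after seeing the data, 8 genes were called higher and 9 lower. The higher genes were MMP1, EGR1, SPX, STEAP1, VIM, ACOX2, FOSL1, FAM83A and CAVIN3. Among the lower ones were the interferon-induced genes TRIM22, IFITM1, OAS1, CMPK2, PLAAT4 and IFI35. Values are linear MAS5 signals, and a difference is EGF minus nicotine on the log2 scale, averaged over the 2 pairs, with the limma standard error (SE). The fit took in the 4 A549 arrays to estimate the spread, which leaves 2 residual degrees of freedom for each gene. Another 6.50 came from limma's pooling of the spread over all genes, done here with an intensity trend. An unadjusted p under 0.05 was reached by 1342 of the 12514 genes, 570 higher and 772 lower. The list counts at an unadjusted p below are to be read beside this share. The pairs had the same sign in 57.4% of tested genes, with 26.3% higher and 31.1% lower in both, the shares to set beside the list counts below. With arrays centred on their medians, 53 genes were called higher and 52 lower, so the share of calls that were higher went from 34.6% to 50.5%. Without the intensity trend, or without the pair block, limma called no gene, with 1130 and 224 genes at an unadjusted p under 0.05, and leaving out a pair gave 46 to 112 higher and 79 to 223 lower calls.

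**Figure D1:**
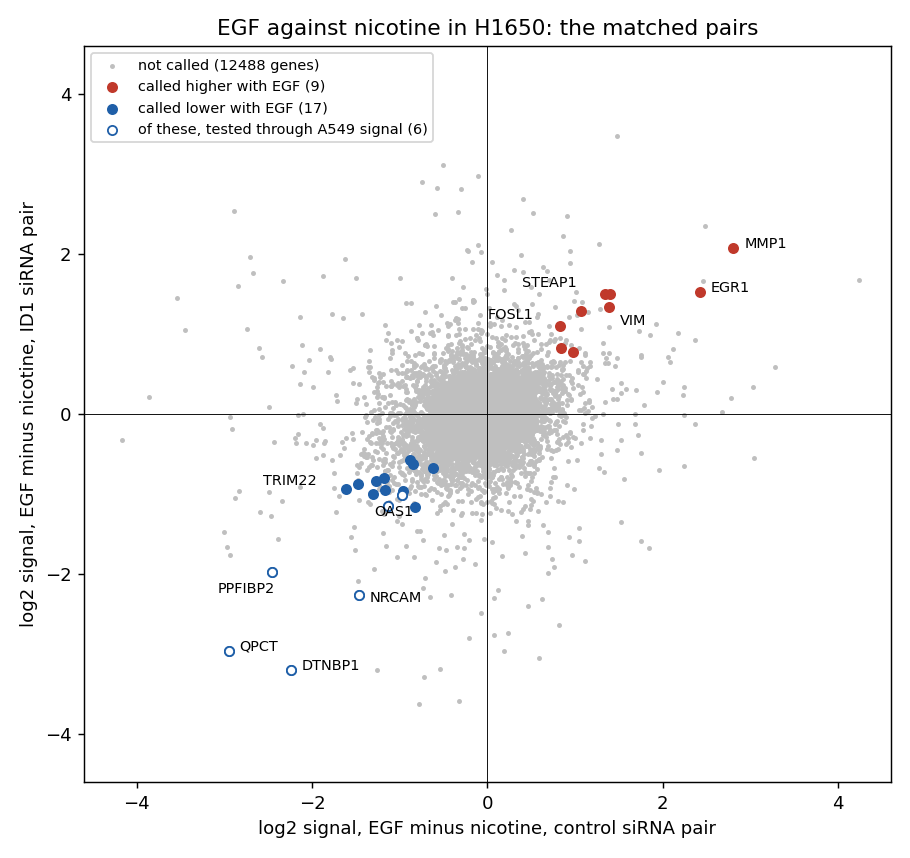
Each point is 1 of 12514 tested genes, placed by its log2 signal difference, EGF minus nicotine, in the control siRNA pair (horizontal axis) and in the ID1 siRNA pair (vertical axis) of H1650. The 9 genes called higher (red) lie in the upper right, with MMP1 at 2.81 and 2.08, and the 17 called lower (blue) in the lower left, with TRIM22 at -1.61 and -0.94; open circles are the 6 that were tested only through their A549 signal, whose distance from 0 rests on low H1650 signals.

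The H1650 arrays of a pair differed little in general measures. The median signal was 73.8 with EGF and 79.3 with nicotine in the control siRNA pair, and 78.9 and 79.6 in the ID1 siRNA pair. The hybridisation spikes bioB, bioC, bioD and cre were 1.05- to 1.14-fold brighter on the EGF array in both pairs, and the GAPDH 3' to 5' signal ratio was 0.903 to 0.932 on all 4. All 9 epithelial markers were bright, from 3494 for RAB25 to 27572 for KRT18, while both blood cell markers, PTPRC and CD3E, lay below the array median on all 4 arrays. Of 3 endothelial and 5 fibroblast markers 1 (VWF) and 2 (LUM and PDGFRB) did so, whereas PECAM1 (153 to 228), COL1A1 (501 to 998) and DCN (80.1 to 130) lay above it on all 4. The summed endothelial signal was 336 and 420 with nicotine and 176 and 373 with EGF, under control and ID1 siRNA, and the fibroblast sum 741 and 1214 against 729 and 817. Both sums were lower with EGF in both pairs, and their part in the results was not tested. ID1, the siRNA target, had signals of 4964 with nicotine and 5121 with EGF under control siRNA and of 881 and 1031 under ID1 siRNA. Its difference between the stimuli was 0.14 ± 0.11 (SE, 2 pairs; limma adjusted p = 0.77).

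EGFR itself was at nearly the same level with either stimulus. Its signal was 12347 with nicotine and 12190 with EGF under control siRNA, and 9570 and 10123 under ID1 siRNA, a difference of 0.03 ± 0.11 (SE; limma adjusted p = 0.96). Of 20 tested receptors, adaptors and receptor-level inhibitors none was called, with 3 at an unadjusted p under 0.05; 11 were higher and 6 lower in both pairs, against 26.3% and 31.1% of all tested genes. ERBB2, the coreceptor without a ligand, had 1518 with nicotine and 1283 with EGF under control siRNA and 1809 and 1293 under ID1 siRNA. Both EGF arrays thus lay below both nicotine arrays, with a difference of -0.36 ± 0.11 (limma adjusted p = 0.30). ERRFI1, an inhibitor that binds the EGFR kinase domain, differed by 0.25 and 0.18 in the pairs, and CBL, the ubiquitin ligase that sends EGFR for degradation, by 0.27 and 0.42.

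The tested EGFR ligands numbered 5 of 7, of which none was called, while 4 had an unadjusted p under 0.05. HBEGF, a membrane-bound ligand released by cleavage, had signals of 889 and 907 with nicotine and of 1532 and 1365 with EGF, under control and ID1 siRNA. Both EGF arrays were above both nicotine arrays. The difference was 0.69 ± 0.13 (SE; limma adjusted p = 0.08). TGFA, the ligand most widely made by epithelial tumours, differed by 0.40 and 0.19 in the pairs. BTC, betacellulin, went the other way with 368 and 232 under nicotine and 175 and 174 under EGF (difference -0.75 ± 0.23; adjusted p = 0.30). The transcript of EGF itself differed by 1.43 in the control pair and by 0.31 in the ID1 pair (adjusted p = 0.45). EREG, epiregulin, differed in opposite directions in the pairs.

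Of the 18 tested feedback inhibitors of ERK signalling none was called and 6 had an unadjusted p under 0.05. In both pairs 10 were higher and 4 lower (55.6% and 22.2%, against 26.3% and 31.1% of all tested genes). DUSP6, the phosphatase that removes phosphate from ERK in the cytoplasm, had 1250 and 1056 with nicotine and 1849 and 1527 with EGF under control and ID1 siRNA. The EGF arrays were the higher ones in each pair and did not overlap with the nicotine arrays (difference 0.55 ± 0.09 SE; limma adjusted p = 0.07). DUSP7, a phosphatase of the same family, went from 1122 to 1860 and from 668 to 1046, with a difference of 0.69 ± 0.14 and an adjusted p of 0.10. SPRED2, a membrane inhibitor of RAF activation, differed by 0.43 and 0.30. DUSP16, which acts mainly on JNK and p38, was lower with EGF, by -0.50 and -0.61 in the pairs. SPRY2 and SPRY4, Sprouty inhibitors induced by growth factors, differed by 0.09 ± 0.12 and 0.07 ± 0.14.

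In the immediate and delayed early genes of the ERK response, EGF arrays lay above their nicotine partners more often than below. Of 42 tested members 2 rose, EGR1 and FOSL1, and none fell; 29 were higher and 4 lower in both pairs (69.0% and 9.52%, against 26.3% and 31.1% of all tested genes). The list median was 0.17, against -0.02 over all tested genes. EGR1 had a signal of 278 with nicotine and 1492 with EGF under control siRNA, and of 279 and 805 under ID1 siRNA. Its nicotine arrays were alike and both EGF arrays were above them, by 5.36-fold with control siRNA and 2.88-fold with ID1 siRNA. The difference was 1.97 ± 0.21 (SE, 2 pairs; limma adjusted p = 0.020), and its other 2 probe sets gave 1.07 and 1.4. FOSL1, the AP-1 subunit FRA1, had 1050 and 717 with nicotine and 1857 and 1541 with EGF, under control and ID1 siRNA, which is a difference of 0.96 ± 0.12 (adjusted p = 0.033).

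Below the threshold, IL11, a cytokine of the IL-6 family, went from 148 to 275 and from 112 to 213, and GEM, a small GTPase, from 177 to 271 and from 145 to 267. LIF, also of the IL-6 family, had differences of 0.52 and 0.60 (limma adjusted p = 0.08), and UPP1, uridine phosphorylase, of 0.45 and 0.54 (adjusted p = 0.09). These 4 were chosen after their values were seen. FOS, the partner of JUN in AP-1, was dim with nicotine under control siRNA. Its signals were 22.5 and 107 in that pair and 134 and 169 in the ID1 siRNA pair, and no size is given for the first pair. JUN, MYC and CCND1 differed by -0.07, 0.13 and 0.15, each with an adjusted p above 0.7. ATF3, a stress-induced factor of the same list, was lower with EGF by -0.32 and -0.35.

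**Figure D2:**
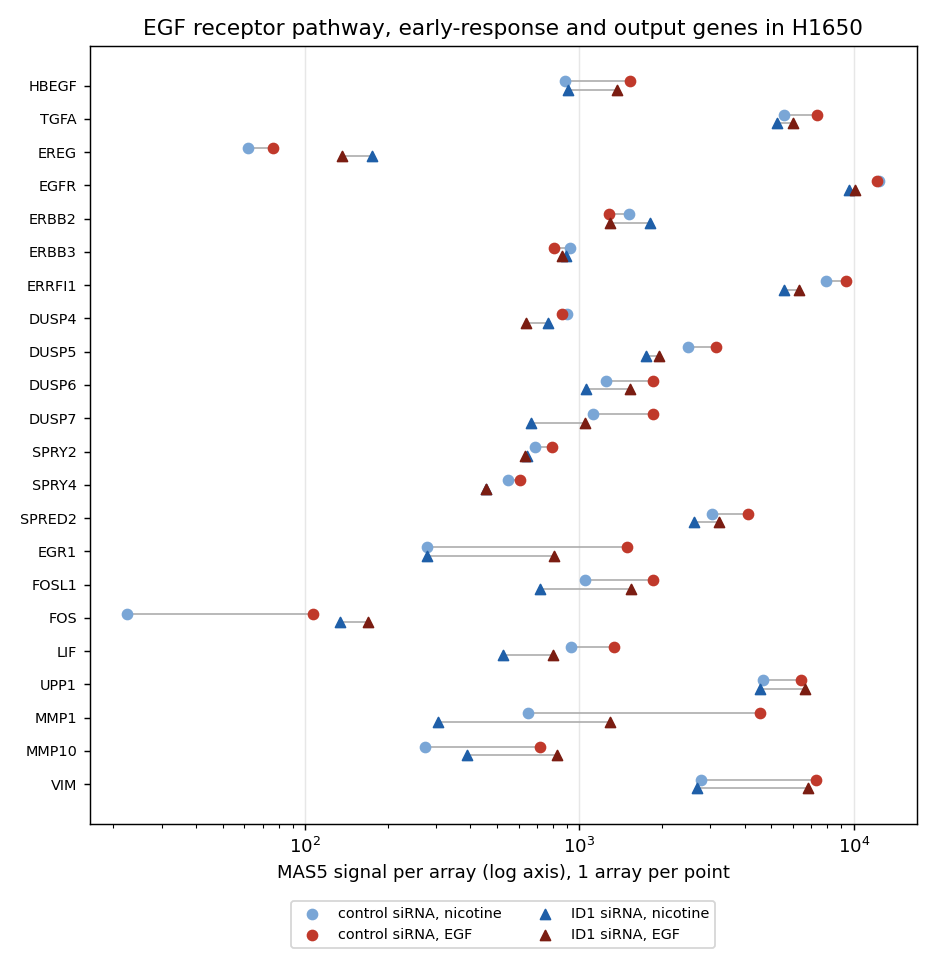
Each point is the MAS5 signal of 1 gene on 1 H1650 array, on a log axis; circles are control siRNA, triangles ID1 siRNA, blue is nicotine and red is EGF, and a grey line joins the arrays of a pair. EGR1, MMP1 and VIM have long lines to the right in both pairs, from 278 to 1492, from 650 to 4553 and from 2765 to 7251 with control siRNA. FOS has a long line with control siRNA only, from a dim 22.5 to 107. EGFR and the Sprouty genes hardly move.

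MMP1, interstitial collagenase, a secreted protease and known AP-1 target, had the largest difference of the called genes that were higher. Its signal was 650 with nicotine and 4553 with EGF under control siRNA, and 305 and 1290 under ID1 siRNA. Each EGF array was above both nicotine arrays, 7.0-fold and 4.22-fold above its partner. The difference was 2.44 ± 0.19 (SE, 2 pairs; limma adjusted p = 0.0045). Of 23 tested invasion and matrix protease genes MMP1 alone was called, with 9 at an unadjusted p under 0.05, and 11 were higher and 3 lower in both pairs. MMP10, stromelysin 2, went from 273 to 717 and from 389 to 825 (adjusted p = 0.09), and MMP3, stromelysin 1, from 169 to 326 and from 479 to 1772 (adjusted p = 0.26). TIMP1, an inhibitor of these proteases, differed by 0.53 and 0.61. MMP7, matrilysin, lay on the other side, with 156 and 187 with nicotine and 87.9 and 114 with EGF (difference -0.77; adjusted p = 0.07).

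VIM, vimentin, the intermediate filament of mesenchymal cells that many carcinoma lines also make, had almost the same values in the 2 pairs. Its signal was 2765 and 2689 with nicotine and 7251 and 6820 with EGF, under control and ID1 siRNA, and the groups did not overlap (difference 1.37 ± 0.14 SE; limma adjusted p = 0.020). Of 20 tested mesenchymal genes and transition factors VIM alone was called. In both pairs 6 were higher and 8 lower (30% and 40%, against 26.3% and 31.1% of all tested genes). FN1, SNAI2 and CDH2, which often move with VIM in a transition towards a mesenchymal state, differed by 0.09, -0.09 and -0.05. ZEB1, a repressor of epithelial genes, was dim on both nicotine arrays, at 18.1 and 28.1, and had 81.9 and 56.8 with EGF, the second also below its array median (adjusted p = 0.08). Its other probe set differed by -0.36 and 0.38 in the pairs. Among 24 epithelial junction and polarity genes none was called, 1 had an unadjusted p under 0.05, and 5 were higher and 5 lower in both pairs (20.8% each).

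Of the other genes called higher, STEAP1, a membrane metalloreductase, had 586 and 679 with nicotine and 1486 and 1925 with EGF, under control and ID1 siRNA (difference 1.42 ± 0.12 SE; limma adjusted p = 0.0067). The EGF arrays were at least 2-fold above the nicotine arrays in both pairs. FAM83A, a gene linked to signalling downstream of EGFR, had 3849 and 3300 with nicotine and 7603 and 5644 with EGF (0.88 ± 0.13). CAVIN3, a coat protein of caveolae, had 677 and 377 with nicotine against 1208 and 669 with EGF (0.83 ± 0.11). ACOX2, a peroxisomal oxidase of branched fatty acids and bile acid precursors, had 310 and 144 against 649 and 351.4. SPX, the peptide hormone spexin, was below the array median on both nicotine arrays, at 76.3 and 27.6, with 201 and 78.2 on the EGF arrays. The last value also lies below the median of its array, so both SPX values of the ID1 siRNA pair are dim. The rise, read as at least 1.58-fold for the mean of the pairs, thus rests on the control siRNA pair. The other SPX probe set differed by 0.48 and -0.23 in the pairs. SPX was not called with the mean of all probe sets or from the 4 H1650 arrays alone (limma adjusted p = 0.44 and 0.11).

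Most tested interferon-induced genes had a lower signal with EGF than with nicotine in both pairs, and few of them passed the test. Of 46 listed genes 43 were tested. Of these 3 fell (IFITM1, OAS1 and CMPK2), none rose, and 33 had an unadjusted p under 0.05, against 1342 of all 12514 tested genes. In both pairs 38 were lower and none was higher, 88.4% against 31.1% of all tested genes that were lower in both. The list median was -0.65, with -0.76 in the control siRNA pair and -0.45 in the ID1 siRNA pair, against -0.02 over all tested genes. The list was among those drawn up with earlier results of these data known, and nicotine arrays are shared by all its members, so the counts are a description.

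IFITM1, whose promoter window is printed above, had a signal of 8627 with nicotine and 3112 with EGF under control siRNA, and of 3078 and 1686 under ID1 siRNA. The EGF array was the lower one in each pair, but the EGF array with control siRNA was level with the nicotine array with ID1 siRNA, so the stimuli are separated within a pair and not over all 4 arrays. The difference was -1.17 ± 0.16 (SE, 2 pairs; limma adjusted p = 0.039). OAS1, a synthetase of the 2-5A that activates RNase L, had 4875 and 2176 with control siRNA and 2163 and 1116 with ID1 siRNA, nicotine first (difference -1.06 ± 0.12; adjusted p = 0.023), and its other probe set gave -1.01. CMPK2, a mitochondrial nucleotide kinase induced with the antiviral genes, had 10067 and 4185 with control siRNA and 2830 and 1584 with ID1 siRNA (difference -1.05 ± 0.13; adjusted p = 0.033). For CMPK2 the nicotine arrays differed more between siRNAs than either did from its EGF partner. Of the 38 genes lower in both pairs, 29 had the larger difference under control siRNA, as did 2167 of the 3893 lower in both pairs among all tested genes.

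Other members with adjusted p values from 0.05 to 0.1 included antiviral effectors, sensors and antigen presentation genes, picked here after their values were seen. RSAD2, viperin, had 11276 and 3029 with nicotine and 4932 and 2019 with EGF, under control and ID1 siRNA (limma adjusted p = 0.08). IFIH1, the double-stranded RNA sensor MDA5, had 5664 and 3371 against 2886 and 1998, and the difference was -0.86 with an adjusted p of 0.08. The EGF arrays of IFIH1 were below both nicotine arrays. PSMB9, an immunoproteasome subunit, had 2330 and 1526 against 1451 and 909 (adjusted p = 0.06), and TAP1, the peptide transporter that loads HLA class I, had 2662 and 1548 against 1575 and 1009. HLA-B, HLA-C and B2M, the HLA class I chains themselves, differed by -0.10, 0.01 and 0.04. ISG15, a ubiquitin-like protein, and IFI27, with signals of 10347 to 19894 over the 4 arrays, differed by -0.30 and -0.07.

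**Figure D3:**
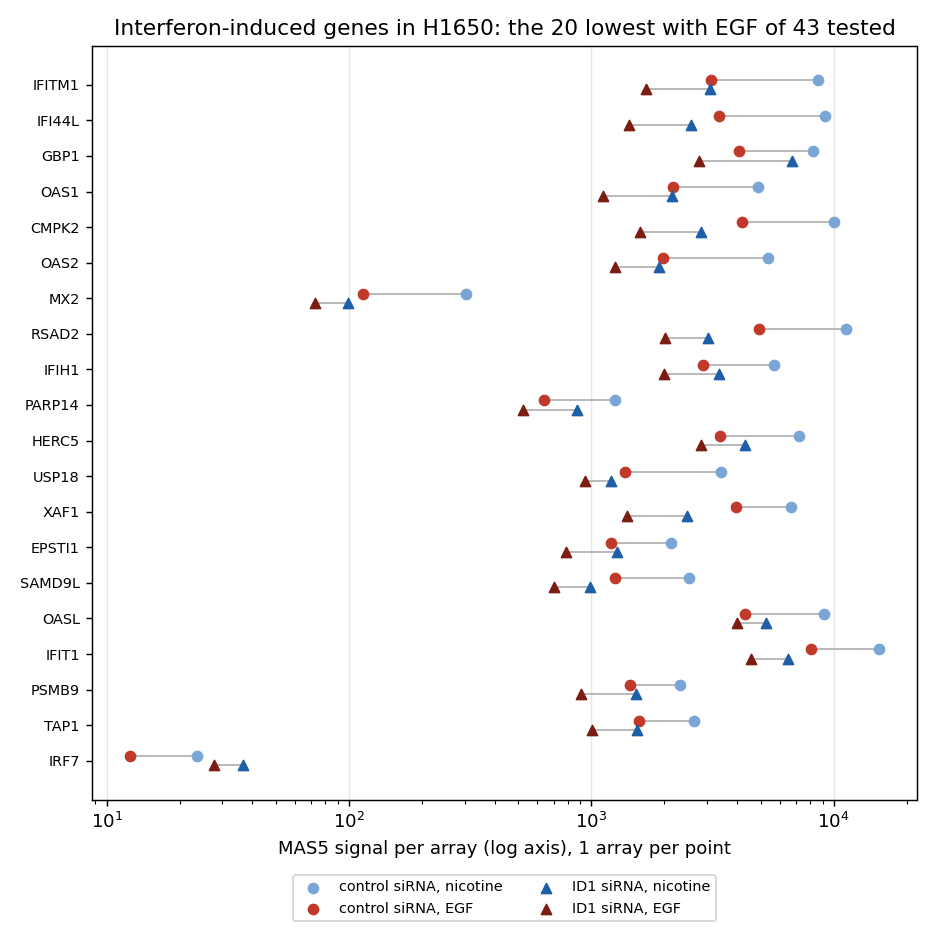
Each point is the MAS5 signal of 1 interferon-induced gene on 1 H1650 array (log axis), for the 20 tested members with the lowest EGF minus nicotine difference; circles are control siRNA, triangles ID1 siRNA, blue is nicotine, red is EGF, and grey lines join pairs. In each of these genes the EGF point of a pair lies to the left of the nicotine point, for IFITM1 at 3112 against 8627 and at 1686 against 3078.

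Genes called lower outside that list included further interferon-induced ones. TRIM22, an antiviral ubiquitin ligase, had 3013 and 1298 with nicotine and 987 and 678 with EGF, under control and ID1 siRNA, so both EGF arrays were below both nicotine arrays (difference -1.27 ± 0.15 SE; limma adjusted p = 0.033). IFI35 had 4425 and 1964 against 2449 and 1270, and PLAAT4, a phospholipase induced by interferon and retinoids, had 904 and 1086 against 465 and 557. Genes at least 2-fold lower in both pairs but above the adjusted threshold included CXCL10, a T cell chemokine induced by interferon gamma, with 1690 and 633 against 305 and 262. TNFSF10, the death ligand TRAIL, had 359 and 149 against 59.5 and 63.8, the EGF arrays being dim. TLR3, a receptor for double-stranded RNA, had 471 and 512 against 205 and 222, and APOL1 had 957 and 805 against 423 and 339. These 4 had adjusted p values of 0.07, 0.08, 0.08 and 0.07, and apart from TNFSF10 were chosen after their values were seen.

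Enzymes called lower included ASS1, GATM and FA2H. ASS1, argininosuccinate synthase, had 4458 and 4559 with nicotine and 1970 and 2611 with EGF, under control and ID1 siRNA (difference -0.99 ± 0.12 SE; limma adjusted p = 0.033). GATM, which makes the creatine precursor guanidinoacetate from arginine and glycine, had 977 and 1676 against 550.5 and 749 (-0.99 ± 0.14). FA2H, which hydroxylates fatty acids of sphingolipids, had 214 and 150 against 86.7 and 75.0, the value of 75.0 being dim. Its other probe set above the filter went the other way, at 0.55. HSPA2, an HSP70 family chaperone, and RHOBTB3, both outside the naming rule, had the smallest differences of the called genes at -0.73 and -0.64.

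AKR1C2, a reductase of steroids and xenobiotics, had 74.8 and 116 with nicotine and 34.0 and 52.2 with EGF, and was below the array median on both EGF arrays, so its fall is read as at least 1.22-fold. The nicotine value of 74.8 also lay below its array median of 79.3, so only the ID1 siRNA nicotine array was above its median. Its other probe set gave -0.47, and with the mean of all its probe sets, low ones included, the difference was 0.054. Of 27 tested genes of xenobiotic metabolism AKR1C2 alone was called, and 12 had an unadjusted p under 0.05. In both pairs 8 were higher and 7 lower (29.6% and 25.9%, against 26.3% and 31.1% of all tested genes). AKR1B10, an aldose reductase of the same superfamily, had 391 and 498 against 239 and 326 (limma adjusted p = 0.08), and PIR, an iron-binding nuclear protein, differed by -0.71 and -0.66. TXNRD1 and SRXN1, antioxidant targets of NRF2, lay on the other side, at 0.30 and 0.38.

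Of the 6 called genes that passed the filter only through A549, 4 were below the array median on all 4 H1650 arrays; AKR1C2 and PPFIBP2 are the others. QPCT, glutaminyl cyclase, had 15.7 and 19.7 with nicotine and 2.03 and 2.54 with EGF in H1650, against 7926 to 9710 in A549. DTNBP1, dysbindin, had 33.8 and 23.7 against 7.14 and 2.59. NRCAM, a neuronal adhesion molecule, had 75.1 and 46.6 against 27.2 and 9.72, and SPP1, osteopontin, had 58.2 and 63.1 against 29.7 and 31.3. With the mean of all its probe sets SPP1 differed by 0.20. At these signals no fold is given for the 4 genes. PPFIBP2, a liprin, was near the median with nicotine, at 86.1 and 63.5, and dim with EGF, at 15.7 and 16.2.

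The A549 marker genes were measured in H1650 because several of these genes are bright in A549. Of the 5 markers, ALDH1A1, AKR1C3, GPX2 and ALDH3A1 were below the array median on all 4 H1650 arrays and AKR1B10 was above it. Their summed signal was 515 and 576 on the nicotine arrays and 314 and 456 on the EGF arrays, under control and ID1 siRNA, where each single marker in A549 had at least 12961. The lower sums with EGF came from AKR1B10, at 391 and 498 with nicotine and 239 and 326 with EGF. The other 4 markers summed to 124 with nicotine and 74.7 with EGF under control siRNA, and to 77.6 and 131 under ID1 siRNA, so they were lower with EGF in one pair and higher in the other.

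Among other lists the numbers were smaller, beside 26.3% of all tested genes higher and 31.1% lower in both pairs. None of 22 tested NF-kB and cytokine genes was called, with 6 at an unadjusted p under 0.05; 12 were lower and none was higher in both pairs, and the median was -0.26, but -0.49 in the control siRNA pair and -0.06 in the ID1 siRNA pair. CCL5, a chemokine induced by both NF-kB and interferon and chosen after its values were seen, had 12338 and 4409 with nicotine and 6838 and 3337 with EGF. CCL2, a monocyte chemokine, was dim with EGF. IL6 was lower with EGF in the control pair, at 5170 against 8037, and not in the ID1 pair, at 4596 against 4377. Of 32 mitotic genes none was called, with 2 at an unadjusted p under 0.05, while 18 were lower and 2 higher in both pairs. Their differences were small, with a median of -0.12, and NUSAP1, a spindle protein, had the largest at -0.32.

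Of 27 MYC and ribosome biogenesis genes none was called, with 6 at an unadjusted p under 0.05. In both pairs 14 were higher and 1 lower (51.9% and 3.70%, against 26.3% and 31.1% of all tested genes). ODC1, the first enzyme of polyamine synthesis, differed by 0.59 and 0.29. Of 17 ribosomal protein genes 13 were higher and none lower in both pairs, all within 0.05 to 0.16, and none was called or had an unadjusted p under 0.05. None of 28 PI3K, AKT and FOXO targets was called, with 5 at an unadjusted p under 0.05, and 12 were lower and 6 higher in both pairs. None of the 11 tested nicotinic and beta-adrenergic receptor genes was called, with 2 at an unadjusted p under 0.05. CHRNB2, a nicotinic receptor subunit, had 145 and 165 with nicotine and 222 and 263 with EGF (limma adjusted p = 0.41).

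**Figure D4:**
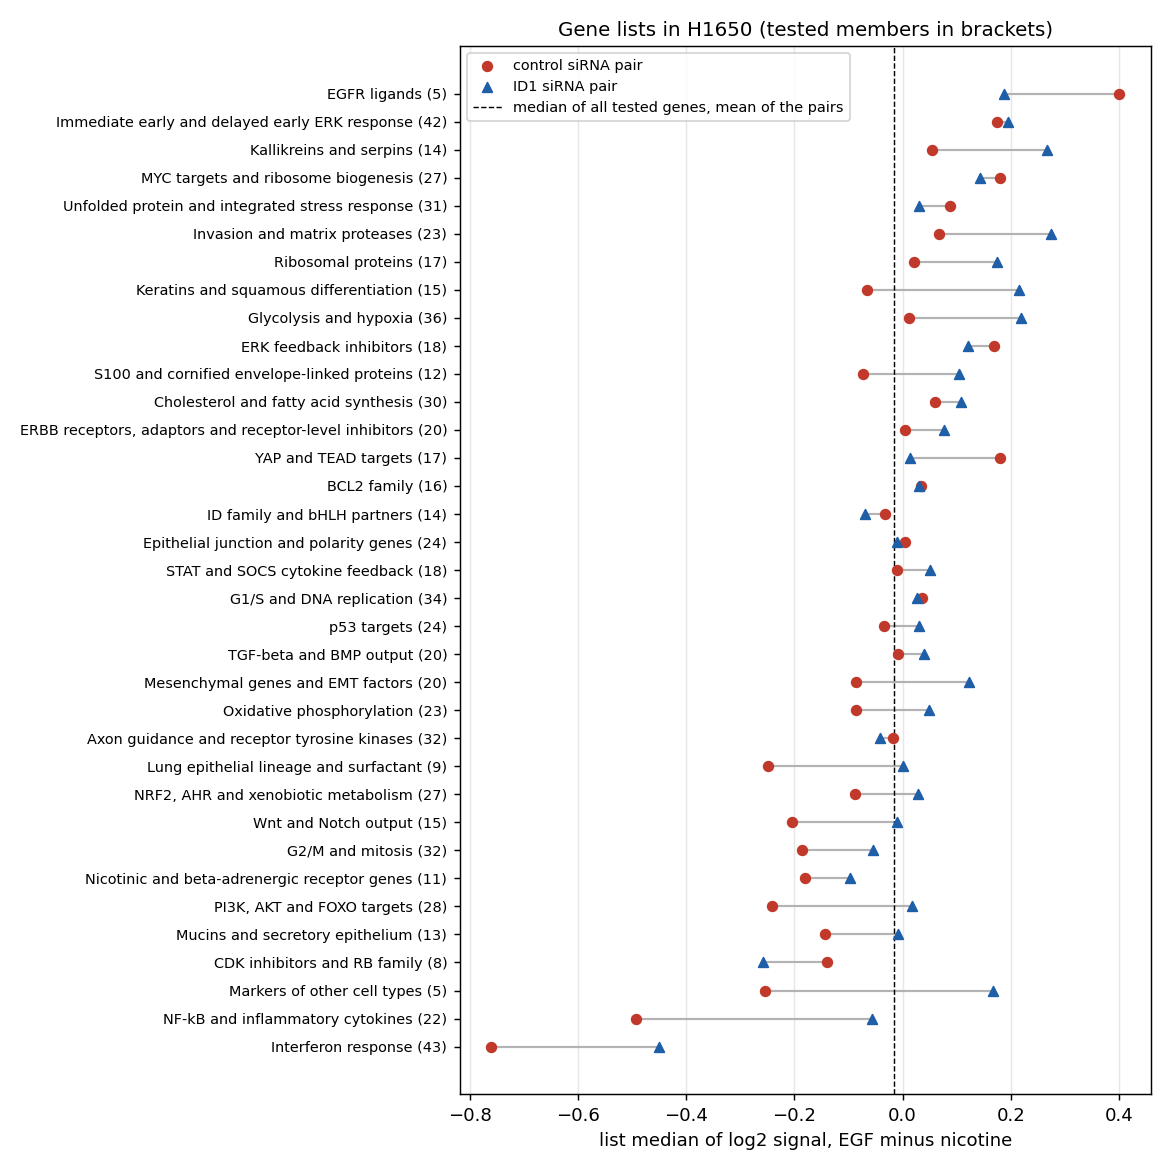
Each row is 1 of 35 gene lists, with the number of tested members in brackets; the red circle is the median log2 signal difference, EGF minus nicotine, in the control siRNA pair, the blue triangle that in the ID1 siRNA pair, and the dashed line the median of all tested genes at -0.02. The interferon list lies farthest to the left in both pairs, at -0.76 and -0.45, and the early ERK response list lies to the right in both, at 0.17 and 0.20.

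At the 2-fold limit that the labels name, 21 genes were higher and 35 lower with EGF in both pairs (0.168% and 0.28% of tested genes), a count with no test. Of these 56 genes 12 were also called, 14 were below the array median on all 4 H1650 arrays and 18 were dim with one stimulus only. The genes described here were not called. SCG5, a secretory granule chaperone, had 49.9 and 38.9 with nicotine and 121 and 170 with EGF, and CCBE1, a lymphangiogenic matrix protein, 33.2 and 33.7 against 80.7 and 83.5. Both were dim on the nicotine arrays, so the rises are read as at least 1.80-fold and 1.03-fold. For CCBE1 the limma adjusted p was 0.24, and 1 of its other probe sets differed by -0.18 and 0.96 in the pairs. SALL4, a stem cell transcription factor, had 103 and 69.8 against 227 and 169, the value of 69.8 being dim. HPGD, which inactivates prostaglandins, was dim on all 4 H1650 arrays, at 1.33 to 25.1, against at least 10576 in A549, so no size is given, and 2 of its other probe sets went the other way. BCL2A1, an anti-apoptotic BCL2 relative, had 89.7 and 56.5 against 188 and 118, the value of 56.5 being dim. NUPR1, a stress-induced chromatin protein, was lower with EGF in both pairs, with 265 and 470 against 130 and 224.

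Many large differences were seen in 1 pair alone. A difference of at least 2-fold in one pair, with the other pair under 1.2-fold or opposite, was found for 116 genes higher and 208 lower with EGF. SCNN1A, the sodium channel alpha subunit, had 98.7 with nicotine and 6.78 with EGF under control siRNA, but 97.1 and 112 under ID1 siRNA. DNAH6, an axonemal dynein, had 133.5 and 93.8 under control siRNA and 18.1 and 157 under ID1 siRNA. CCN2, a YAP target, went from 1439 to 3178 with control siRNA and from 2249 to 2309 with ID1 siRNA. Each of these rests on 1 pair of arrays, with no replicate.

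In A549 the same contrast called 3 genes higher and 1 lower. The arrays of an A549 pair were less alike in the cre spike than those of H1650. In A549 it was 29953.5 with nicotine and 48378.5 with EGF under control siRNA, and 30233.8 and 38273.8 under ID1 siRNA. All 17 tested ribosomal protein genes were higher with EGF in both A549 pairs, with medians of 0.68 and 0.22. The part of this in the differences between the lines was not tested. The difference between the lines, tested in the same fit, was called for 2 genes higher and 7 lower in H1650 (0.016% and 0.0559% of tested genes), of which CLDN7 was dim on all 4 A549 arrays and QPCT on all 4 H1650 arrays. OAS1 had a difference of -1.06 in H1650 and 0.67 in A549, so that H1650 minus A549 was -1.73 ± 0.17 (SE; limma adjusted p = 0.018). For CMPK2 it was -1.84 ± 0.19 (adjusted p = 0.018), for IFI35 -1.21 ± 0.15 and for MX1 -1.25 ± 0.15 (adjusted p = 0.034 for each). MX1, whose window is printed above, had 16098 and 7663 with nicotine and 10308 and 4940 with EGF in H1650, under control and ID1 siRNA, and was not itself called there (adjusted p = 0.07). In A549, MX1 went from 361 to 615 with control siRNA and from 5755 to 7894 with ID1 siRNA, and the siRNAs thus differed far more than the stimuli.

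The interferon list had a median of 0.49 in A549 against -0.65 in H1650. In A549, 38 of its members were higher in both pairs, against 3321 of all 12514 tested genes. Lower in both H1650 pairs and higher in both A549 pairs were 33 of its 43 members. Over all tested genes, 1749 went opposite ways in the lines, in either direction, with both pairs of each line agreeing. The early ERK response list had medians of 0.18 in A549 and 0.17 in H1650, with no member called for the difference. For MMP1 the A549 signals were 113 and 331 with nicotine and 229 and 610 with EGF, a difference of 0.95, and H1650 minus A549 was 1.5 ± 0.27 (limma adjusted p = 0.15). EGR1, FOSL1 and VIM had differences between the lines with adjusted p values of 0.23, 0.21 and 0.29. STEAP1 was bright in A549 at 7522 to 9840, differed by -0.10 there, and the difference between the lines was 1.52 ± 0.17 (adjusted p = 0.027).

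**Figure D5:**
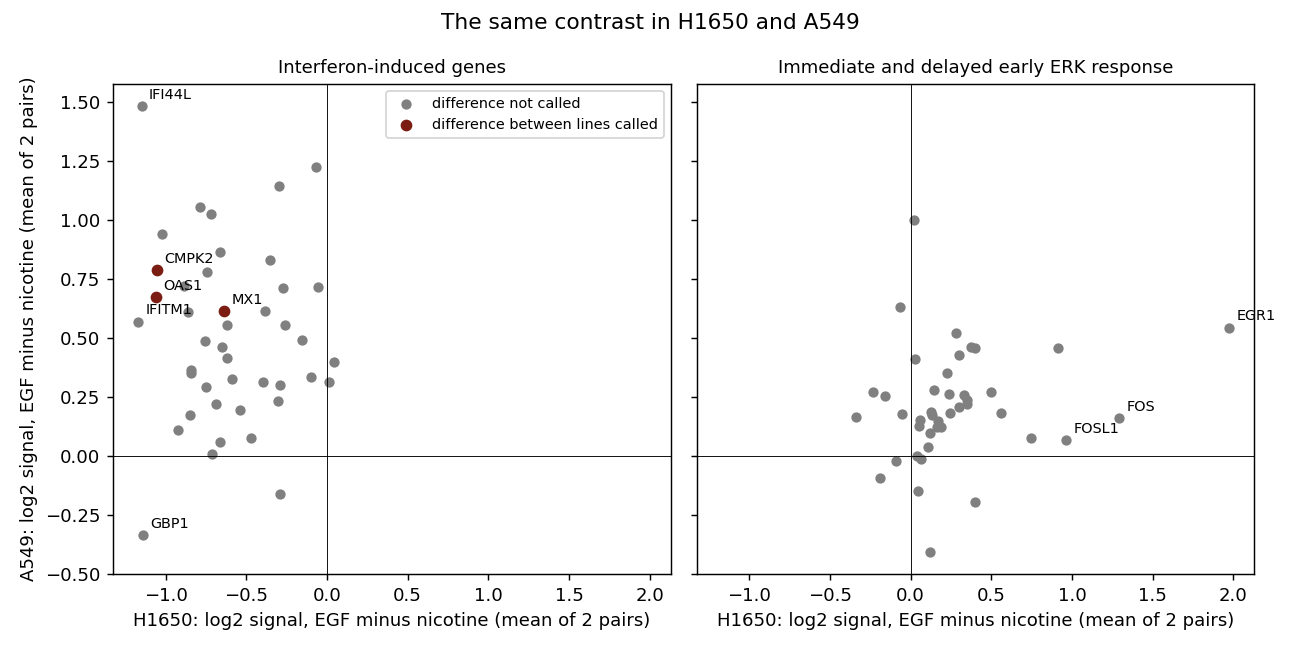
Each point is a gene placed by its log2 signal difference, EGF minus nicotine (mean of 2 pairs), in H1650 (horizontal axis) and in A549 (vertical axis), for the interferon list (left) and the early ERK response list (right); dark red marks genes whose difference between the lines was called. Interferon genes lie mostly in the upper left, with OAS1 at -1.06 and 0.67, and EGR1 stands to the right at 1.97 and 0.54.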

How the data were processed

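The deposited values are MAS5 signal intensities from Affymetrix U133 Plus 2.0 arrays, made with GCOS 1.4 and MAS5 per the submitters' processing notes, 1 per probe set. They are linear, with a trimmed mean of about 499.9 on each array, and log2 was taken here. Of 54675 probe sets, 62 controls, 1801 with several symbols and 11721 without a gene were set aside, and 41037 of the remaining 41091 were matched by Entrez identifier to current symbols. One probe set stood for each of 19775 genes, the brightest on average over the 8 stimulated arrays. Genes whose mean reached the probe sets' median (signal 67.7), 12514 in all, were tested in limma 3.58.1 (R 4.3.3), with a block for each of 4 pairs matched on line and siRNA, a stimulus term within each line, an intensity trend and Benjamini-Hochberg adjustment. The pairing comes from line and siRNA in the labels. The fit was tested on simulated data. A gene is called dim where its signal is below its array's median, and an at least fold is set against that median. The number of arrays limits the precision.

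The contrast, its members and the 35 gene lists were chosen with earlier results of these data known. Named genes are the called ones with the largest differences (up to 15 per direction), 2-fold genes where fewer than 10 were called, the largest differences between lines, the largest in 1 pair, all tested EGFR ligands, receptors and ERK feedback inhibitors, called and largest members of other lists, and ID1. Any other list member named was chosen after its values were seen. Promoter windows came from RefSeq. Alternatives were other scalings, filters, probe set rules and models, and leaving out a pair; a filter on the H1650 arrays alone was added after seeing the data. The unstimulated arrays were not used here.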

Additional observations from a re-analysis of the deposited data

Results flagged for a closer look

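The effect of EGF against nicotine differed between H1650 and A549, by limma's test of the difference, for 9 genes. For 2 of them, QPCT and CLDN7, the signal was below the array median on all 4 arrays of one line, so the size of their fitted difference rests on dim signals and is not read as a fold. H1650 minus A549 on the log2 scale was -3.02 for QPCT, -1.84 for CMPK2, -1.73 for OAS1, -1.57 for AKR1C2, -1.55 for FAXDC2, -1.25 for MX1, -1.21 for IFI35, 1.52 for STEAP1 and 3.94 for CLDN7. CLDN7, a claudin of epithelial tight junctions, differed by 0.09 in H1650, where its signal was 3916 to 4291, and had dim signals of 2.29 to 60.6 on the A549 arrays. FAXDC2, a fatty acid hydroxylase family member, differed by -0.11 in H1650 and by 1.43 in A549, where it went from 877 to 2473 with control siRNA and from 335 to 869 with ID1 siRNA. QPCT had 2.03 to 19.7 on the H1650 arrays, and AKR1C2 was dim on both H1650 arrays with EGF. The interferon-induced genes had a list median of -0.65 in H1650, below 0 in both pairs, and of 0.49 in A549, above 0 in both pairs. This difference between the lines was not tested for the list. The cre spike was also brighter with EGF in both A549 pairs, as given above.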

How the results depend on the processing

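Fits that change only the filter, the model or the A549 arrays keep the same H1650 mean of 2 pairs, so a gene's direction cannot change there. Leaving out an H1650 pair gives the difference of the other pair, which had the same sign for all 26 called genes. With quantile normalization, median centring and 16 added to the signal, where the direction could change, all 26 kept it. With the mean of all probe sets 22 of 24 did, where AKR1C2 was at 0.054 and SPP1 at 0.20. The cause of both was not tested. Genes called in H1650, higher and lower, numbered 53 and 52 with median centring, 17 and 32 with 16 added to the signal, 4 and 4 without the filter, 15 and 26 with a stricter filter, 8 and 9 with a filter on the H1650 arrays alone (added after seeing the data), 2 and 1 with the mean of all probe sets, 58 and 108 from the 4 H1650 arrays alone, and 0 and 0 both without the intensity trend and without the pair block. At an unadjusted p under 0.05 these last fits in limma had 1130 and 224 genes, with smallest adjusted p values of 0.073 and 0.050. The calls thus rest on the pair block and the trend. Of the 26 called genes, 21 were also called with quantile normalization, 26 with median centring and 18 from the 4 H1650 arrays alone. Leaving out 1 pair gave 46 to 112 higher and 79 to 223 lower calls; 112 and 223 were reached without the H1650 ID1 siRNA pair, when a lone H1650 pair is assumed to vary as the A549 pairs do, and 69 and 79 without the H1650 control siRNA pair. Without the A549 control siRNA pair there were 46 and 93, and without the A549 ID1 siRNA pair 49 and 92.

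Genes called for H1650 minus A549, higher and lower, numbered 3 and 3 with quantile normalization, 2 and 26 with median centring, 1 and 13 with 16 added, 1 and 5 without the filter, 2 and 13 with the stricter filter, and 0 and 0 with the mean of all probe sets, without the trend and without the block, where 873, 892 and 144 genes had an unadjusted p under 0.05. Leaving out 1 pair gave 16 to 58 and 29 to 154. Genes at least 2-fold different in both pairs, higher and lower, numbered 12 and 20 with 16 added, 296 and 356 without the filter, 27 and 25 with the mean of all probe sets, 17 and 21 with the stricter filter and 92 and 181 at 1.5-fold. The interferon list median lay between -0.76 and -0.45 and the early ERK response list median between 0.16 and 0.22 over 15 settings. The interferon limits are the medians of the control and ID1 siRNA pairs of H1650 taken singly. Settings that change only the model or the A549 arrays cannot move these medians. Low signal limits the dim genes, and the number of arrays limits all of them.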

Other observations

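Further genes differed the same way in both H1650 pairs without being called. Beside the list counts here stand 26.3% of all tested genes higher and 31.1% lower in both pairs. SERPINB1, an inhibitor of neutrophil proteases, had signals of 1163 and 661 with nicotine and 1773 and 982 with EGF, under control and ID1 siRNA, a difference of 0.59 ± 0.10 (SE; limma adjusted p = 0.07), and of its other probe sets one gave 0.63 and one -0.11. Of 14 tested kallikreins and serpins 8 were higher and 3 lower in both pairs. ABCA1, which exports cholesterol from the cell, had 3344 and 2029 against 5106 and 3050 (adjusted p = 0.15), and of 30 genes of cholesterol and fatty acid synthesis 16 were higher and 5 lower in both pairs. EFNB2, an ephrin ligand, had 318 and 519 against 577 and 767 (adjusted p = 0.15). LAMP3, a lysosomal membrane protein of type II pneumocytes and dendritic cells, was on the lower side, with 4179 and 1717 with nicotine and 1988 and 1199 with EGF (adjusted p = 0.08). S100A8, a calcium-binding protein of inflamed epithelium and neutrophils, had 7122 and 6596 against 2738 and 4065 (adjusted p = 0.42). Of 36 glycolysis and hypoxia genes 16 were higher and 4 lower in both pairs, with a median of 0.01 in the control siRNA pair and 0.22 in the ID1 siRNA pair.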
